A study of Homo sapiens with 6 samples.

Results

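Transcription factors of the NF-kappaB family and genes that feed back on them were examined as a set of 10 genes, taken by symbol from the deposited table. They were the subunits NFKB1, NFKB2, RELA and RELB, and NFKBIA and NFKBIZ, which encode IkappaB proteins. The others were TNFAIP3, for a ubiquitin-editing enzyme, and TNIP1, for its binding partner, with the TNF receptor adaptor gene TRAF1 and the ubiquitin ligase gene BIRC3. Each symbol matched 1 of the 60612 rows, and all 10 were abundant enough to be tested. The cells were A549, an established human lung adenocarcinoma line of epithelial type. RNA was taken 48 hours after transfection with an siRNA against GSE1 (siGSE1, 3 libraries) or with a negative control siRNA (control, 3 libraries). Both groups were transfected, no untransfected cells are among the samples, and the labels name no cytokine or other stimulus of NF-kappaB. The labels do not say whether the 3 replicates of a group were separate cultures, so the p-values cover only library-to-library spread, which may be technical. The stated purpose was to find genes and pathways that depend on GSE1, and the comparison below asks how the NF-kappaB genes stood in it.

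NF-kappaB proteins act as dimers. In unstimulated cells the dimers of RELA and the NFKB1 product are held in the cytoplasm by inhibitors such as the product of NFKBIA, and signals from TNF or interleukin-1 receptors lead to the destruction of that inhibitor. A slower, noncanonical branch depends on the kinase encoded by MAP3K14, which brings about the processing of the NFKB2 precursor, the partner of RELB. NF-kappaB dimers bind kappaB sites in DNA, and many genes they activate, among them NFKBIA, TNFAIP3, NFKB2 and BIRC3, encode proteins of the same pathway and feed back on it.

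Letters of the kappaB consensus stand close to the start of most of these genes, whichever way their RNA moved. Promoter sequences (250 bases before to 50 after a gene's start, RefSeq, GRCh38.p14) were at hand for 9 of the 10 genes, RELB being the exception, as 17 promoters in all. The 10-base kappaB consensus was searched on both strands. It was found in 9 of the 17 promoters and in 7 of the 9 genes, against 7.73% of 35116 promoters and 9.16% of 27305 genes. Some of the 17 promoters belong to the same gene, and kappaB control of several of these genes is textbook knowledge, so the share is a description. A match is a run of letters and not a measured site. The stretches are shown with the match in capitals, on the strand of the gene, because the same letters recur in genes that rose, fell or were not called. They have up to 30 bases on each side, or 10 where the longer stretch meets an annotated exon of GENCODE release 29. The stretches with 10 still meet such an exon.

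NFKB1 (chr4:102501300-102501329, plus strand): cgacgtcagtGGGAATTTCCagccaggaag
NFKBIZ (chr3:101827740-101827806, plus strand): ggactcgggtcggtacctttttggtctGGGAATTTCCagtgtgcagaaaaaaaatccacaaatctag
NFKBIA (chr14:35404791-35404860, minus strand): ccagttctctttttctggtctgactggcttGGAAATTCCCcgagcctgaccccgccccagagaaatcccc
BIRC3 (chr11:102317255-102317324, plus strand): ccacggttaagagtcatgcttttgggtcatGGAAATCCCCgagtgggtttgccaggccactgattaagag
TNFAIP3, nearer match (chr6:137867194-137867223, plus strand): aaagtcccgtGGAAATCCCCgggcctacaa
TNFAIP3, farther match (chr6:137867182-137867211, plus strand): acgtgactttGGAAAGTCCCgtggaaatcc
TNIP1 (chr5:151081057-151081086, minus strand): ccagtctccgGGGACTTTCCcaggggtggg
NFKB2, second start (chr10:102394461-102394490, plus strand): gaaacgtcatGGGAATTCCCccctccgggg

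Read in the direction of the consensus, the match was GGGAATTTCC in NFKB1, NFKBIZ and NFKBIA, where the NFKBIA copy lies on the opposite strand. NFKB1 and NFKBIZ rose and NFKBIA was lower in siGSE1 cells. BIRC3, which was lower, and TNFAIP3, which was not called, shared GGGGATTTCC. The farther match of TNFAIP3 and the match of TNIP1, neither gene being called, were both GGGACTTTCC, which also stood 21 bases before the third start of NFKB2, a gene that fell. The NFKB2 match GGGAATTCCC reads alike on both strands and began 107 bases before the second of 3 RefSeq starts. A second match before that start, and both matches before the third start, are not shown, and NFKBIZ had another match before its second start. Matches began 49 bases before the start in NFKB1, 223 in NFKBIZ, 81 in NFKBIA, 199 in BIRC3, 55 and 67 in TNFAIP3 and 42 in TNIP1. The promoters of RELA and TRAF1 held no such letters in their windows.

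In siGSE1 cells 2 of the 10 genes were higher, 4 were lower and 4 were not called. The 2 that rose were NFKBIZ and NFKB1, and the 4 that fell were NFKB2, BIRC3, TRAF1 and NFKBIA. In RNA from whole cultures, fewer cells that express a gene and less of its RNA per cell cannot be told apart. A gene was called at a Benjamini-Hochberg adjusted p below 0.05 in edgeR's quasi-likelihood test over all 15937 genes tested, where 19.9% were called, 10.9% higher and 9.02% lower. The median log2 fold change of the 10 genes was -0.12 and that of all genes tested was 0.00. The control and siGSE1 libraries did not overlap for 7 of the 10 genes, the 6 called and RELA, against 36.2% of all genes tested. Of the genes tested, 5.30% had a larger absolute log2 fold change than NFKBIZ, 13.8% a larger one than NFKB2 and 51.7% a larger one than NFKBIA. With the libraries scaled by the sum of counts per exonic length (TPM scaling), which moves the median of all genes to 0.07, 3 of the 10 were lower and 2 higher. Over all genes that scaling gave 2544 higher and 929 lower, in place of 1730 and 1437.

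**Figure D1:**
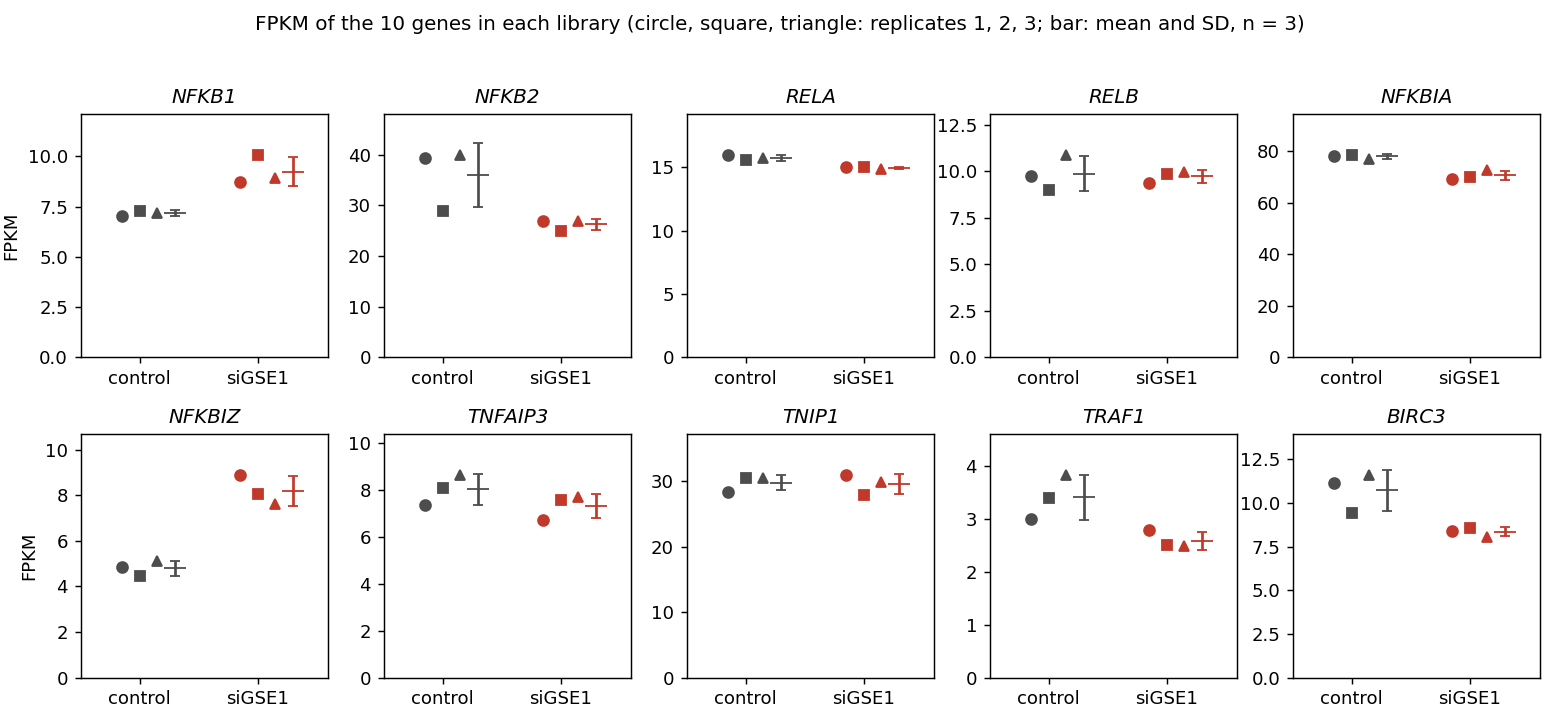
Deposited FPKM of each of the 10 genes (vertical axis, from 0, its scale differing between panels) in the 3 control and 3 siGSE1 libraries, with circles, squares and triangles for replicates 1, 2 and 3 and a bar for the mean and SD. NFKBIZ and NFKB1 lie higher in every siGSE1 library, and NFKB2, BIRC3, TRAF1, NFKBIA and RELA lie lower, with control replicate 2 of NFKB2 (28.82 FPKM) close to the siGSE1 libraries.

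Library totals ran from 14475992 to 20755506 counts, and the 10 genes together took 0.0783% to 0.0890% of them. GSE1 itself had 7.37, 8.06 and 7.92 FPKM in control replicates 1 to 3 and 3.84, 4.06 and 3.73 in siGSE1 replicates 1 to 3, with edgeR giving -1.03 on the log2 scale (SE 0.06, adjusted p = 2.14e-08), which checks the group labels. Control replicate 2 stood apart from its group in several of the 10 genes, as given beside them. The keratins KRT8 and KRT18 had 754 and 902 FPKM on average in control cells and fell to 83.5% and 84.3% of control in siGSE1 cells (edgeR adjusted p = 0.0173 and 0.0317). The surfactant genes SFTPB and SFTPC, the lung factor NKX2-1 and NAPSA were below 1 FPKM in every library. The epithelial marker EPCAM was low as well, at 0.45 to 1.14 FPKM, and was not called. Of 12 epithelial markers, 9 were tested, and KRT8, KRT18 and the tight junction gene CLDN4 were called, all lower in siGSE1 cells. That was 3 of the 9, beside 9.02% lower among all genes tested. Only 1 was lower with TPM scaling, by limma on log2(FPKM + 1) or log2(FPKM + 0.1), or with edgeR's robust prior. The same count held without siGSE1 replicate 1, 2 or 3. Control replicate 2 was the highest control library for KRT8 (862.98 FPKM) and KRT18 (1052.69 FPKM). The summed FPKM of the epithelial markers were 2230 to 2570 in control and 2130 to 2140 in siGSE1 libraries. Their part in the results was not tested. Of 14 leukocyte markers 11 stayed below 1 FPKM in all 6 libraries. The 3 tested, CD14, ITGAM and CD8A, were not called, and NKG7, not tested, reached 1.12 FPKM in siGSE1 replicate 1. The leukocyte sums were 5.33 to 7.73 FPKM in control and 5.02 to 7.45 in siGSE1 libraries. Of these, CD14 had 3.14 to 5.67 FPKM over the 6 libraries. The leukocyte gene PTPRC was at 0 in all control libraries. Of 8 endothelial markers 7 stayed below 1 FPKM, with sums of 1.22 to 1.51 in control and 1.81 to 2.54 in siGSE1 libraries. ESAM, a junction adhesion gene, was the 1 called of 3 tested, higher. Of 10 fibroblast markers 8 stayed below 1 FPKM, and the 1 called of 5 tested was S100A4, lower, a gene that carcinoma cells also express.

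Before any comparison of groups, the genes differed widely in level. FPKM (read counts scaled to exonic length and to the library total) allow only a rough comparison between genes. The exonic length of a gene need not be that of the transcripts expressed, and replicates do not show such an error. In control cells NFKBIA was the most abundant at 78.0 ± 0.81 FPKM (SD, n = 3), followed by NFKB2 at 36.1 ± 6.30, TNIP1 at 29.8 ± 1.2 and RELA at 15.8 ± 0.23. BIRC3 at 10.7 ± 1.17, RELB at 9.88 ± 0.96, TNFAIP3 at 8.01 ± 0.65, NFKB1 at 7.17 ± 0.14, NFKBIZ at 4.80 ± 0.33 and TRAF1 at 3.40 ± 0.42 came next. The libraries of NFKB2 and TNIP1 overlapped, as did those of BIRC3 and RELB, so their order is not settled by these replicates. The other neighbours in that order did not overlap, but the lowest control library of TNFAIP3 (7.34) was barely above the highest of NFKB1 (7.29). In siGSE1 cells TNIP1 (29.6 ± 1.56 FPKM) stood above NFKB2 (26.3 ± 1.10) without overlap. NFKB1 (9.25 ± 0.74) then overlapped with RELB (9.73 ± 0.33), and NFKBIZ (8.20 ± 0.65) with BIRC3 (8.34 ± 0.26) and TNFAIP3 (7.31 ± 0.52). TRAF1 stayed lowest at 2.59 ± 0.17 FPKM.

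The precursor subunit genes NFKB1 and NFKB2 moved in opposite directions. NFKB1 (ENSG00000109320, hg38 chromosome 4, 102501331 to 102617302, plus strand), which encodes p105 and its processed form p50, had 7.02, 7.29 and 7.21 FPKM in control replicates 1, 2 and 3 and 8.73, 10.09 and 8.92 in siGSE1 replicates 1, 2 and 3. Every siGSE1 library lay above every control library, and siGSE1 replicate 2 was the highest. The log2 fold change was 0.34 (SE 0.07, 95% interval 0.20 to 0.49, edgeR adjusted p = 0.00208), an increase of 1.27-fold. NFKB1 kept its direction and its call under all 15 other settings, with log2 fold changes of 0.28 to 0.40.

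NFKB2 (ENSG00000077150, chromosome 10, 102394110 to 102402524, plus strand), which encodes p100 and its processed form p52, had 39.41, 28.82 and 40.02 FPKM in the control replicates and 26.95, 24.99 and 26.85 in the siGSE1 replicates. All siGSE1 values were the lower ones, but control replicate 2 was much nearer to them than to the other control libraries. The log2 fold change was -0.48 (SE 0.09, 95% interval -0.68 to -0.28, edgeR adjusted p = 0.00183), a level of 71.6% of control. Without control replicate 2 it was -0.62, and with edgeR's robust prior, which allows single genes a larger spread, the adjusted p was 0.0704 and the call was lost. Over the 15 other settings the log2 fold change lay between -0.62 and -0.40.

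The FPKM of NFKB2 was 4.92 times that of NFKB1 in control cells and 2.82 times in siGSE1 cells, as geometric means of ratios within each library. On the log2 scale, with 0.1 added to both FPKM, the ratio was 2.47, 1.97 and 2.46 in the control replicates and 1.61, 1.3 and 1.58 in the siGSE1 replicates, with no overlap. The difference of -0.80 had an exact two-sided permutation p of 0.1, the smallest that 3 libraries against 3 allow, and 0.2 after adjustment over the 4 ratios examined. Without control replicate 2 the difference was -0.97.

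The subunit genes RELA and RELB, whose products carry a transactivation domain, were not called. RELA (ENSG00000173039, chromosome 11, 65653597 to 65663090, minus strand), the main activating subunit of the canonical branch, had 16.01, 15.56 and 15.72 FPKM in control replicates and 15.03, 15.05 and 14.90 in siGSE1 replicates. The groups did not overlap, but the difference was small and below what edgeR calls, at -0.10 on the log2 scale (SE 0.05, 95% interval -0.21 to 0.02, adjusted p = 0.231). RELB (ENSG00000104856, chromosome 19, 45001449 to 45038198, plus strand), the partner of the NFKB2 product in the noncanonical branch, had 9.76, 8.99 and 10.90 FPKM in control replicates and 9.35, 9.88 and 9.96 in siGSE1 replicates. The siGSE1 values fell inside the control range, and the log2 fold change of -0.04 (SE 0.08, 95% interval -0.22 to 0.13, adjusted p = 0.773) changed sign with TPM scaling (0.02) and without control replicate 3 (0.01). The log2 ratio of RELB to RELA differed by 0.05 between groups (exact two-sided permutation p = 0.6, adjusted 0.6), and by 0.00 without control replicate 2.

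The IkappaB genes NFKBIZ and NFKBIA also went opposite ways. NFKBIZ (ENSG00000144802, chromosome 3, 101827991 to 101861022, plus strand), which encodes the nuclear protein IkappaB-zeta, a cofactor needed for a secondary wave of NF-kappaB targets, had 4.84, 4.45 and 5.11 FPKM in control replicates and 8.90, 8.08 and 7.61 in siGSE1 replicates. The groups were far apart and the lowest siGSE1 library was well above the highest control library. The log2 fold change of 0.75 (SE 0.08, 95% interval 0.58 to 0.92, edgeR adjusted p = 8.28e-06), or 1.68-fold, was the largest of the 10 and was called under all 15 other settings, at 0.66 to 0.81. The first bases of NFKBIZ overlap on the same strand with the end of NXPE3 (chromosome 3, 101779202 to 101828231), so reads from that short stretch could belong to either gene.

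NFKBIA (ENSG00000100906, chromosome 14, 35401513 to 35404749, minus strand), which encodes IkappaB-alpha, the cytoplasmic inhibitor that NF-kappaB itself induces, had 78.15, 78.72 and 77.12 FPKM in control replicates and 69.40, 70.07 and 72.71 in siGSE1 replicates. The 2 groups were tight and did not overlap. The level in siGSE1 cells was 89.1% of control, or -0.17 on the log2 scale (SE 0.05, 95% interval -0.27 to -0.06, edgeR adjusted p = 0.0290). The call was lost in 6 of 15 other settings: with TPM scaling (-0.10, adjusted p = 0.141), with no low-count filter (adjusted p = 0.0674), and without control replicate 1 (0.0672) or siGSE1 replicate 1 (0.129), 2 (0.125) or 3 (0.0562). The log2 ratio of NFKBIA to RELA was 2.28, 2.33 and 2.29 in control and 2.20, 2.21 and 2.28 in siGSE1 libraries, a difference of -0.07 (exact two-sided permutation p = 0.1, adjusted 0.2).

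TNFAIP3 and TNIP1, which encode the ubiquitin-editing enzyme A20 and its binding partner ABIN-1, both brakes on signals from the TNF receptor, were not called. TNFAIP3 (ENSG00000118503, chromosome 6, 137867214 to 137883312, plus strand) had 7.34, 8.07 and 8.63 FPKM in control replicates and 6.72, 7.54 and 7.68 in siGSE1 replicates. The groups overlapped, and the log2 fold change was -0.15 (SE 0.08, 95% interval -0.32 to 0.01, edgeR adjusted p = 0.188). Its log2 ratio to RELA differed by -0.06 between groups (exact two-sided permutation p = 0.5, adjusted 0.6). TNIP1 (ENSG00000145901, chromosome 5, 151029945 to 151093577, minus strand) had 28.38, 30.50 and 30.40 FPKM in control replicates and 30.95, 27.88 and 29.91 in siGSE1 replicates. The siGSE1 libraries held both the highest and the lowest of the 6 values. Its log2 fold change was -0.03 (SE 0.06, 95% interval -0.15 to 0.09, adjusted p = 0.739), and it changed sign with TPM scaling (0.03) and without siGSE1 replicate 2 (0.01).

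The ubiquitin ligase gene BIRC3 and the adaptor gene TRAF1 both fell. BIRC3 (ENSG00000023445, chromosome 11, 102317450 to 102339403, plus strand), which encodes the ubiquitin ligase cIAP2, had 11.14, 9.39 and 11.60 FPKM in control replicates and 8.37, 8.58 and 8.06 in siGSE1 replicates. The siGSE1 libraries lay close together below all control libraries, of which replicate 2 was the lowest. The log2 fold change was -0.38 (SE 0.07, 95% interval -0.54 to -0.23, edgeR adjusted p = 0.00149), a level of 76.6% of control, and it was called under all 15 other settings, at -0.47 to -0.32.

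TRAF1 (ENSG00000056558, chromosome 9, 120902393 to 120929173, minus strand), which encodes a TRAF adaptor that binds TRAF2 and the cIAP proteins, was the scarcest of the 10, with 216 to 315 counts per library. At 216 counts the counting error is 6.80%. It had 2.99, 3.39 and 3.83 FPKM in control replicates and 2.78, 2.5 and 2.48 in siGSE1 replicates. Control replicate 1 was only slightly above the highest siGSE1 library. The log2 fold change was -0.42 (SE 0.12, 95% interval -0.66 to -0.17, edgeR adjusted p = 0.0174). The call was lost in 5 of 15 other settings: with limma on log2(FPKM + 1) (-0.29, adjusted p = 0.0654) or log2(FPKM + 0.1) (0.0620), and without control replicate 3 (-0.35, 0.0597), siGSE1 replicate 2 (0.0732) or siGSE1 replicate 3 (0.0777).

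**Figure D2:**
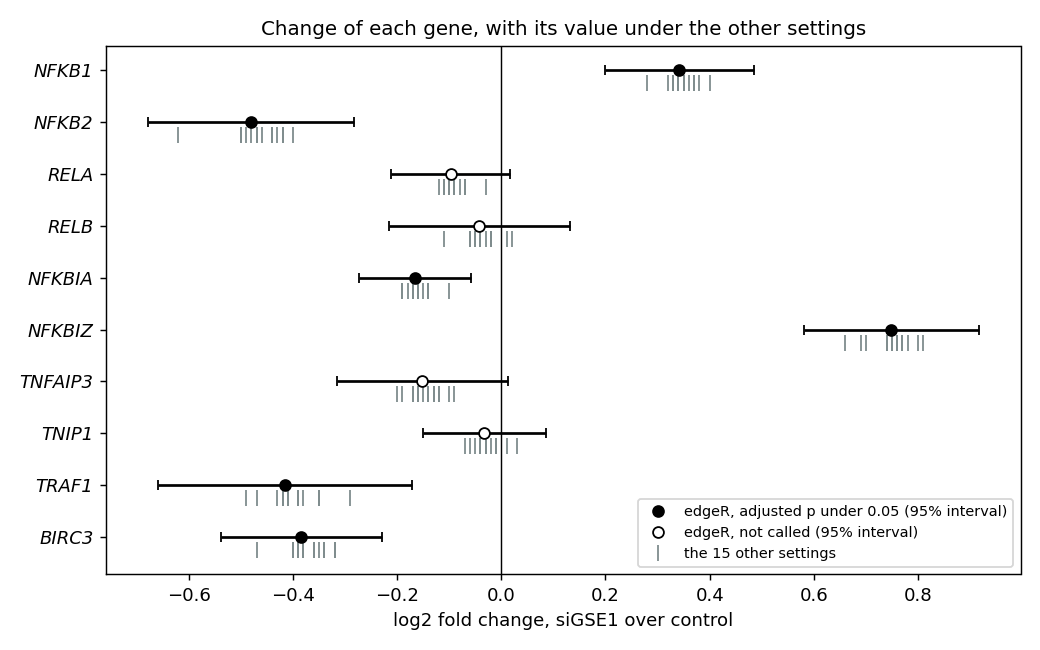
Log2 fold change of siGSE1 over control (horizontal axis) for the 10 genes (vertical axis), as edgeR estimates with 95% intervals, filled where called, and as grey ticks under 15 other settings. NFKBIZ (0.75) and NFKB1 (0.34) lie above 0 and NFKB2, BIRC3, TRAF1 and NFKBIA below 0 under every setting, whereas the ticks of RELB and TNIP1 cross 0.

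Library by library, NFKB2 and BIRC3 varied alike among the control libraries, whereas TRAF1 and NFKBIA, which also fell, did not follow them. Log2 CPM are read counts scaled to the library total after TMM adjustment, with a prior count of 2. NFKB2 and BIRC3 had a Pearson correlation of log2 CPM of 0.96 over the 6 libraries, which includes the difference between groups. In both, control replicate 2 was the lowest control library, by 0.31 below the control mean for NFKB2 and 0.18 for BIRC3 on the log2 scale. It was also the lowest control library for RELB (0.13 below) and NFKBIZ (0.11 below), but it was the highest for NFKB1 and TNIP1, at 0.02 and 0.04 above the mean. TRAF1 was lowest in control replicate 1 (0.16 below the mean) and highest in control replicate 3. NFKBIZ and NFKBIA had a correlation of -0.98 and NFKBIZ and NFKB1 one of 0.89. These values rest on 6 libraries in 2 groups and are descriptions.

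**Figure D3:**
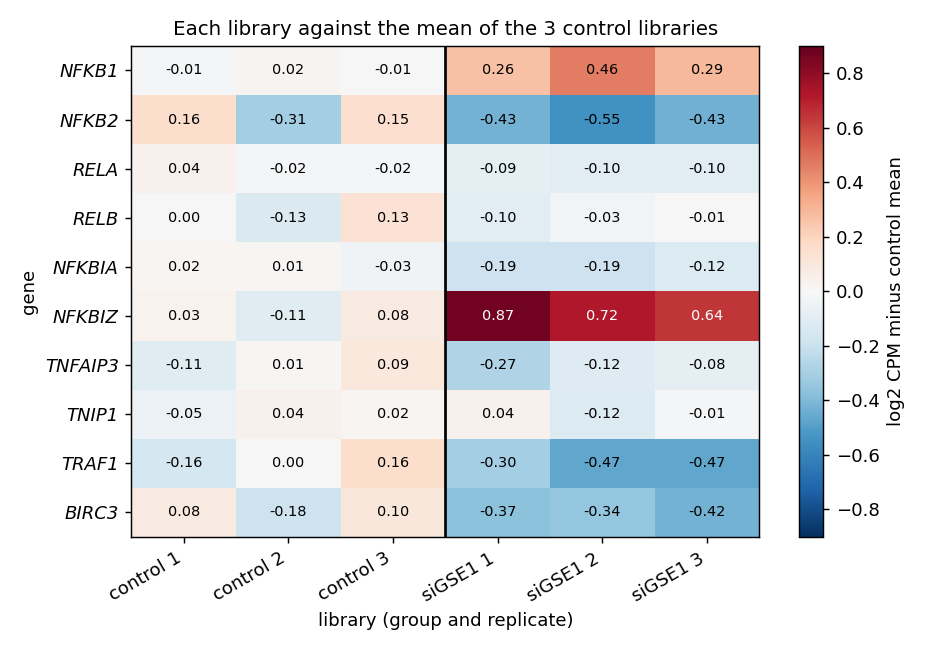
Log2 CPM of each gene (rows) in each library (columns) minus the mean of the 3 control libraries, printed in each cell and coloured red above and blue below 0. All 3 siGSE1 cells are above 0 for NFKBIZ (0.64 to 0.87) and below 0 for NFKB2 (-0.55 to -0.43), and within the control columns the lowest NFKB2 and BIRC3 cells are those of replicate 2.

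The genes whose pattern was most like that of NFKBIZ, the gene of smallest p, were MTHFD1L, a mitochondrial folate enzyme gene, MPHOSPH10, a nucleolar protein gene, and the septin gene SEPTIN7. Their Pearson correlations with NFKBIZ over the 6 libraries were 0.999, 0.996 and 0.996 among genes with at least 5 FPKM on average. These are the highest values among those genes, picked from the same data, and they include the difference between groups. All of these genes rose by less than NFKBIZ. Their log2 fold changes were 0.31 for MTHFD1L (edgeR adjusted p = 0.00292), 0.25 for MPHOSPH10 (0.0326) and 0.20 for SEPTIN7 (0.0125).

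The rest of the pathway was followed through lists of genes by role, 155 genes in all, of which 139 were tested. Of these 30 rose, 18 fell and 91 were not called, beside the 10.9% higher and 9.02% lower among all genes tested, and their median log2 fold change was -0.01. With TPM scaling 38 rose and 9 fell. The number that fell was 12, 10 and 11 without siGSE1 replicates 1, 2 and 3, and 18 without control replicate 2, when 32 rose.

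Upstream of the subunits, receptor and ligand genes included 6 that rose of 21 tested, the other 15 not being called, with a median log2 fold change of 0.08. TNFRSF10B, a receptor for the death ligand TRAIL, rose from 57.9 ± 1.61 to 71.9 ± 3.54 FPKM (SD, n = 3 each). NOD1, a sensor of bacterial peptidoglycan, rose by 0.55 on the log2 scale and IL1R1, the interleukin-1 receptor, by 0.29. TNFSF15, a TNF-family ligand, rose by 0.48 (edgeR adjusted p = 0.00884), but not beyond the threshold without siGSE1 replicate 3 (0.46, 0.0555), with limma on log2(FPKM + 1) or log2(FPKM + 0.1), or with the robust prior (0.0927). The main TNF receptor gene TNFRSF1A, named after its values were seen, was abundant at 132 ± 1.09 and 127 ± 3.88 FPKM and not called, and TNF itself was below the filter on low counts. By limma on log2(FPKM + 1) 3 of the 21 rose, and 4 rose without siGSE1 replicate 3 or with the robust prior. In this list 1 gene fell without control replicate 3, with the robust prior, with no low-count filter or with the replicate number as a block.

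Adaptor and kinase genes split, with 5 rising and 4 falling of 31 tested and a median of 0.00. With TPM scaling 7 rose and 2 fell, and with DESeq2 or the replicate number as a block 3 rose and 4 fell. By limma on log2(FPKM + 1) or log2(FPKM + 0.1) 3 rose and 2 fell. TRAF3, an adaptor that keeps the noncanonical kinase at a low level by directing its degradation, had 6.17, 6.75 and 6.44 FPKM in control replicates and 11.95, 11.42 and 11.91 in siGSE1 replicates. The libraries of each group were close together and TRAF3 rose 1.79-fold, or 0.84 on the log2 scale with an SE of 0.06 (edgeR adjusted p = 1.73e-07). MAP3K14, that kinase (NIK), had 19.68, 14.31 and 20.38 FPKM in control replicates and 11.33, 12.54 and 11.78 in siGSE1 replicates. It fell to 64.6% of control, -0.63 on the log2 scale with an SE of 0.10 (edgeR adjusted p = 3.15e-04), and as for NFKB2 its control replicate 2 was nearest to the siGSE1 libraries. Without that library the log2 fold change of MAP3K14 was -0.78, and over the 15 other settings both genes stayed called, TRAF3 at 0.78 to 0.90 and MAP3K14 at -0.78 to -0.55.

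FBXW11, a subunit of the ubiquitin ligase that recognises phosphorylated IkappaB proteins, fell from 20.4 ± 0.27 to 15.4 ± 0.54 FPKM. IRAK1, a kinase of the interleukin-1 receptor, rose from 62.4 ± 1.89 to 77.0 ± 1.18 FPKM (SD, n = 3 each). Leaving out siGSE1 replicate 2 or 3 left 2 adaptor and kinase genes rising and 2 falling. The number rising was 3 without siGSE1 replicate 1, control replicate 1 or control replicate 3, and 2 fell without control replicate 1.

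Of 9 tested genes for other subunits and IkappaB proteins, 2 rose and 2 fell, with a median of -0.03. NFKBIB, which encodes IkappaB-beta, rose from 23.1 ± 2.26 to 30.5 ± 2.07 FPKM (SD, n = 3 each), the opposite direction to NFKBIA, and edgeR estimated 0.38 on the log2 scale (adjusted p = 0.00225). BCL3, an atypical IkappaB protein that joins p50 and p52 dimers in the nucleus, rose by 0.23 (adjusted p = 0.0152). The BCL3 call was lost without control replicate 1 (0.20, 0.0583), control replicate 3 (0.19, 0.0586), siGSE1 replicate 1 (0.21, 0.0759) or siGSE1 replicate 3 (0.22, 0.0700). NFKBIE, which encodes IkappaB-epsilon, fell by 0.41 with an adjusted p of 0.0420. Its control replicates had 8.23, 6.44 and 10.30 FPKM and overlapped with the siGSE1 libraries (5.64, 6.39 and 6.83), and its call was lost in 10 of 15 other settings, without every library but control replicate 2 included, at adjusted p up to 0.174. NKRF, a repressor of NF-kappaB targets, fell by 0.28 (adjusted p = 0.0129, and 0.0656 without siGSE1 replicate 3, when log2 fold change was -0.25). Without control replicate 2, 4 genes of this list fell, without siGSE1 replicate 3 only 1 was called, higher, 1 rose and 1 fell without control replicate 1 or siGSE1 replicate 1, and 1 rose without control replicate 3.

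Other feedback and deubiquitinating genes had 1 rising and 4 falling of 21 tested, with a median of -0.06. With TPM scaling 3 rose and 1 fell, with a median of 0.01. By limma on log2(FPKM + 1) or log2(FPKM + 0.1) 1 rose and 1 fell, and with no low-count filter 1 rose and 2 fell. ZC3H12A, an RNase that degrades inflammatory mRNAs, rose from 40.3 ± 2.5 to 52.8 ± 1.87 FPKM, and RNF11, a partner of A20, fell from 11.8 ± 0.84 to 9.03 ± 0.94 (SD, n = 3 each). TOLLIP, an inhibitor of IRAK1, fell by 0.20 (edgeR adjusted p = 0.0236) and NLRC5, a regulator of MHC class I genes, by 0.34 (0.0277). The TOLLIP call was lost without siGSE1 replicate 1 (-0.18, 0.117) or 2 (-0.18, 0.112) and in 3 other settings. The NLRC5 call was lost in 9 of 15 other settings, at adjusted p of 0.0502 to 0.156, without every library but control replicate 3 included. Without siGSE1 replicate 1 or 2, 1 gene of the list fell, and 2 fell without siGSE1 replicate 3, control replicate 1 or control replicate 2.

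Among known targets, the cytokine and chemokine genes moved both ways, 7 rising and 4 falling of 18 tested with a median of 0.03. CXCL1, a neutrophil attractant, had 31.55, 52.92 and 43.77 FPKM in control replicates and 84.90, 79.55 and 85.20 in siGSE1 replicates, 0.94 higher on the log2 scale with an SE of 0.12 (edgeR adjusted p = 4.26e-05). The CXCL1 groups were well apart, although the control libraries were spread. CXCL1 is similar in sequence to CXCL2 and CXCL3, and reads that fit several of these genes could be left out or misplaced by the authors' counting. IL15, a cytokine of lymphocyte growth, rose by 0.65. CCL5, a T-cell attractant, had 164.04, 204.13 and 175.30 FPKM in control replicates and 133.37, 128.78 and 132.22 in siGSE1 replicates and fell by 0.49 on the log2 scale (SE 0.07, adjusted p = 1.06e-04). CX3CL1, the membrane-bound chemokine fractalkine, fell from 0.45 ± 0.03 to 0.13 ± 0.02 FPKM (SD, n = 3 each), with as few as 12 counts in a library, and its log2 fold change of -1.73 was -0.35 on the log2(FPKM + 1) scale, which understates the change of low genes. The number of these genes that fell was 2 without siGSE1 replicate 1 or 2 or control replicate 3.

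The remaining targets had 9 rising and 4 falling of 39 tested, with a median of 0.02. EFNA1, an ephrin ligand, rose from 25.3 ± 1.91 to 47.0 ± 1.72 FPKM and SDC4, a heparan sulfate proteoglycan, from 24.8 ± 1.16 to 39.0 ± 0.76 (SD, n = 3 each). IER3, an early response gene, rose by 0.65 on the log2 scale. SQSTM1, which encodes the autophagy receptor p62 and is also a target of NRF2, fell from 126 ± 4.36 to 92.1 ± 1.82 FPKM, which edgeR put at -0.48 on the log2 scale with an SE of 0.05 (adjusted p = 4.51e-06). Without control replicate 1, 6 of these genes fell.

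**Figure D4:**
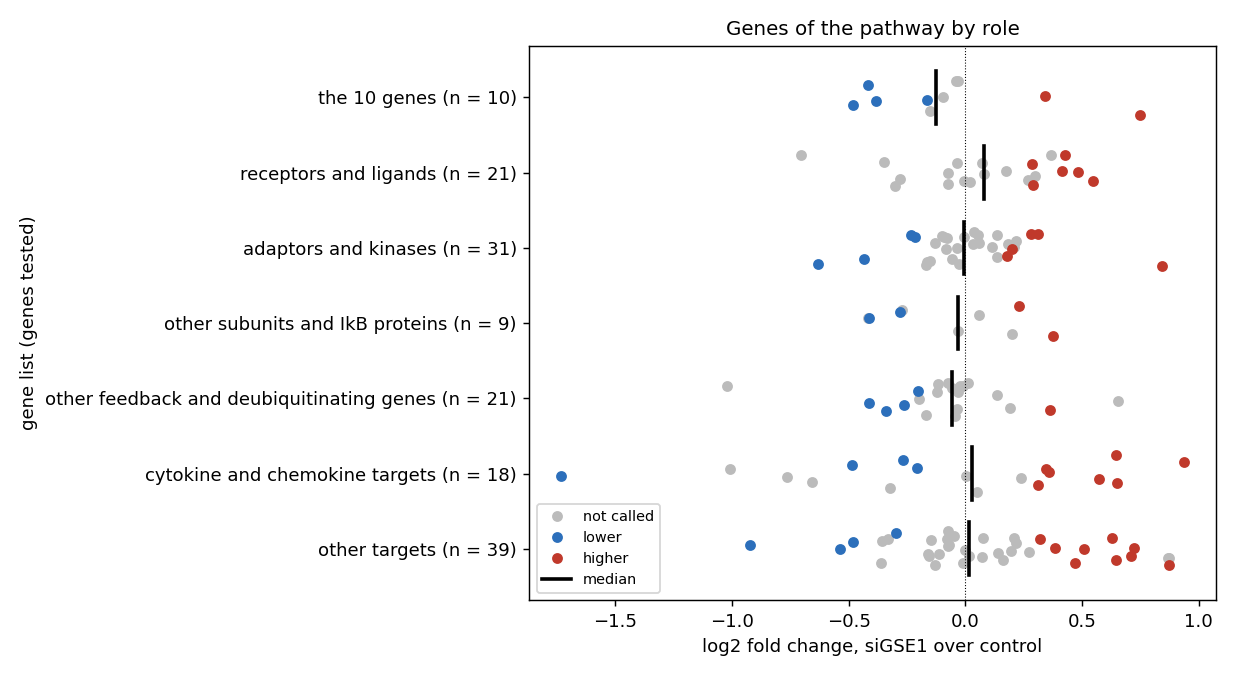
Log2 fold change of siGSE1 over control (horizontal axis) for the 10 genes and the tested genes of 6 pathway lists (vertical axis), 1 point per gene, red where called higher, blue where called lower and grey where not called, with a black line at each list's median. Of the 6 lists, every one but the receptors and ligands holds called genes on both sides of 0, and the medians of those 6 lists lie between -0.06 and 0.08.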

How the data were processed

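Total RNA of 6 A549 libraries was sequenced. The authors deposited 1 table with raw read counts per gene and FPKM, with hg38 positions. Per the submitters' processing notes, the tools included the aligner HISAT2, the counter HTSeq, StringTie 1.3.3b and edgeR, beside cutadapt, FastQC and bcl2fastq. The series text names STAR, RPKM and DESeq2 instead. The sources used here do not give the strand setting of the counting. The deposited FPKM equal counts scaled to exonic length and library total in 100% of values within 0.0051. Counts were tested with edgeR 4.0.16 (R 4.3.3; TMM, filterByExpr with a minimum count of 10 and total of 15, quasi-likelihood test, group alone). Alternatives used DESeq2 1.42.0, limma 3.58.1, other scalings and filters, a replicate block, and each library left out. The count test was tested on simulated data. The biological coefficient of variation was 7.0%, library totals were 14475992 to 20755506 counts, and the counting error at 216 counts is 6.80%.

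The genes and lists were chosen with earlier results of these data known. Genes named are the 10 members, GSE1, from each pathway list up to 4 called genes of smallest adjusted p, the 3 tested genes of at least 5 mean FPKM most correlated with the member of smallest p, and markers, and TNFRSF1A was added after its values were seen. Ratios within a library were compared by exact permutation over the 6 libraries.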

Additional observations from a re-analysis of the deposited data

How the results depend on the processing

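Under 15 other settings NFKB1, NFKBIZ and BIRC3 kept their direction and call, and NFKB2, NFKBIA and TRAF1 kept their direction and lost their calls in 1, 6 and 5 settings. RELB reversed with TPM scaling (0.02) and without control replicate 3, and ran from -0.11 to 0.01 with single libraries left out. TNIP1 reversed with TPM scaling (0.03) and ran from -0.07 to 0.01. The causes were not tested. Members falling ranged from 2 to 4, and 2 rose, with single libraries left out. Over all genes, 1049 to 1914 were higher and 814 to 1648 lower with a library left out, the lowest without siGSE1 replicate 3 and the highest without control replicate 2. Genes lower numbered 929 with TPM scaling, 887 by limma on log2(FPKM + 1) and 909 on log2(FPKM + 0.1). Pathway genes falling numbered 9, 10 and 10 in those settings and 10 to 18 with a library left out. The RELB to RELA ratio difference ran from 0.00 to 0.13 and that of TNFAIP3 to RELA from -0.13 to 0.00 with a library left out. With the replicate number as a block, 1715 genes were higher and 1382 lower, and no call among the 10 genes changed. Same-numbered libraries deviated with correlations of 0.02, -0.02 and 0.00, so the numbers are not known to pair the samples. TRAF1 had the fewest counts of the 10 (216 in a library).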
